A study of Mus musculus with 12 samples.

Results

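The clock output transcription factors described here are 7 mouse genes, *Dbp*, *Tef*, *Hlf*, *Nfil3*, *Bhlhe40*, *Bhlhe41* and *Ciart*, chosen by symbol from the 27179 genes listed in the count table. All 7 were detected in every muscle and were among the 15502 genes tested. They were measured by RNA-seq of tibialis anterior (TA) muscles from wild-type (WT) male C57BL/6N mice. The human long noncoding RNA *FRAIL1*, driven by the cytomegalovirus promoter, was delivered on a plasmid by electroporation into the TA of 1 leg, and the TA of the other leg received the empty pcDNA3 plasmid (Control). There were 6 mice, each muscle received 10 μg of DNA, and muscles were taken at day 7. The mice were young adults kept on a light and dark cycle, and the time of day at which the muscles were collected is not given in the sources used here. *FRAIL1* has no counterpart among the mouse genes of the table, so its level was not analysed here. Transfection reaches part of a muscle's fibers, and the RNA came from the whole muscle, in which fewer cells of a type and less RNA per cell cannot be told apart.

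The circadian clock is a feedback loop in which BMAL1 and CLOCK switch on their own repressors, the PER and CRY proteins, and the nuclear receptors REV-ERBα and REV-ERBβ (*Nr1d1*, *Nr1d2*), which in turn repress *Bmal1*. The clock output factors carry this rhythm to other genes. *Dbp*, *Tef* and *Hlf* encode the PAR bZIP activators, which bind DNA elements called D-boxes, and *Nfil3* encodes a bZIP repressor of the same elements that normally peaks at the opposite time of day. *Bhlhe40* and *Bhlhe41* (DEC1 and DEC2) and *Ciart* (CHRONO) encode repressors of BMAL1 and CLOCK at E-boxes. In skeletal muscle, *Dbp* and *Tef* are among the genes with a strong daily rhythm.

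The question addressed was whether muscles with forced *FRAIL1* expression differed from Control muscles in these factors. *Hlf* fell by 38.5% in the *FRAIL1* muscles, with an edgeR adjusted p just under the threshold of 0.05. For *Dbp*, *Tef*, *Nfil3*, *Bhlhe40*, *Bhlhe41* and *Ciart* the difference did not pass the test. In a fit that compared the legs within each mouse (the mouse as a block) *Nfil3* passed as well. In all 6 mice *Hlf* was lower in the *FRAIL1* leg than in the Control leg, and the same was true of *Nfil3*. This pattern was not particular to them, and the share of all genes with it is not given here. The core clock gene *Csnk1d* was also lower in all 6 mice, at a log2 fold change of only -0.066 (edgeR adjusted p = 0.380). Of all genes tested, 1.85% were called lower, 4.43% higher and 6.28% in either direction, against 1 of the 7 factors called, which was lower.

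The sequences upstream of 3 of the genes are shown, *Hlf* because its level fell, and *Tef* and *Ciart* because they hold E-boxes, the elements at which BMAL1 and CLOCK act. They are the 250 bases before a RefSeq start site in GRCm38.p6, on the strand of the gene, and capitals mark an E-box (CACGTG) or a cAMP response element (TGACGTCA). The *Hlf* sequence is chr11:90390918-90391167 on the minus strand. The *Tef* sequence, from the second of 2 start sites, is chr15:81811164-81811413 on the plus strand. The *Ciart* sequence is chr3:95882229-95882478 on the minus strand.
*Hlf*: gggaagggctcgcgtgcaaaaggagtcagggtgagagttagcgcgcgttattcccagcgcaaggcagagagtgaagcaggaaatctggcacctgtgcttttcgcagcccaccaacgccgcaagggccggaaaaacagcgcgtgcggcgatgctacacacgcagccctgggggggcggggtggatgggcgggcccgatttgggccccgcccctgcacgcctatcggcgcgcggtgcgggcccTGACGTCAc
*Tef*: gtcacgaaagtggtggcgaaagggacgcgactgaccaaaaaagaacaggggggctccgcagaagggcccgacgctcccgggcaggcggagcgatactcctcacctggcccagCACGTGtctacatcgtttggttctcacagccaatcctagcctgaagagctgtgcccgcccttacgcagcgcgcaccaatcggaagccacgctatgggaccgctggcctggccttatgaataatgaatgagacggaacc
*Ciart*: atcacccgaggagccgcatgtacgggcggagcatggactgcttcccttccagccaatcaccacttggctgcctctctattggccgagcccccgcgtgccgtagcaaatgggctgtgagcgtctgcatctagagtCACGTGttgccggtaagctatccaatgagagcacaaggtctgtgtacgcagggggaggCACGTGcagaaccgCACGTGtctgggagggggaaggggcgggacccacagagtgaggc

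*Hlf* held no E-box and 1 cAMP response element, which starts at -9 from the start site. *Tef* held 1 E-box at each start site, at -127 and -138, *Bhlhe41* held 1 at -153, and *Ciart* held 3, at -116, -58 and -44. E-boxes were found in 7.15% of the 32851 promoters of 300 bases in the RefSeq table (250 before and 50 after the start), and 3 or more in 29 of them (0.0883%). The cAMP response element was found in 1.79% of these promoters. The D-box, searched on both strands as TTATGTAA or TTACGTAA, was in 1.06% of all promoters and in none of those of the 6 factors found in that table. *Nfil3* held 1 copy of AGGTCA (minus strand, at -12), the core of the element bound by REV-ERB receptors, which 16.3% of promoters hold, and *Dbp* held none of these letters. The searched elements do not overlap one another in these sequences, and a match says only that the letters are there.

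Libraries held 45018389 to 59309210 counts in Control and 44848322 to 60527385 in *FRAIL1* muscles, and counts of the 7 factors ranged from 83 (*Ciart*) to 14021 (*Tef*) per muscle. *FRAIL1* muscle 5 stood apart by its scaling factor of 1.19 and by its satellite cell and regenerating fiber markers, so calls of the factors and of named core clock genes that change without it are given both ways. Muscle tissue was recovered as labelled, with a summed CPM (a gene's counts relative to the library total) of 8 fast myofiber markers between 94128 and 156956 in every muscle. Levels are CPM scaled by the trimmed mean of M values (TMM), with mean ± SD over 6 muscles, and differences are log2 fold changes of *FRAIL1* over Control with the SE from edgeR's quasi-likelihood test.

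Per kilobase of exon, the order of the factors in Control muscles was *Tef* (29.8), *Bhlhe40* (24.0), *Dbp* (12.9), *Nfil3* (10.5), *Bhlhe41* (8.71), *Hlf* (1.31) and *Ciart* (1.18), as CPM per kilobase. The ranges over the 6 Control muscles overlapped between neighbours from *Dbp* to *Bhlhe41* and between *Hlf* and *Ciart*. The lowest *Tef* value, 28.7, lay above the highest *Bhlhe40* value, 26.7, and all *Bhlhe40* values lay above those of *Dbp*, which reached 17.3. In *FRAIL1* muscles *Ciart* (1.08) came before *Hlf* (0.804), and these ranges overlapped as well. Of the PAR bZIP genes, *Tef* had the highest level per kilobase in both groups and *Hlf* the lowest.

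*Hlf* (Gene ID 217082, chr11:90336535-90390917 in GRCm38) encodes hepatic leukemia factor, a PAR bZIP activator. In Control muscles its CPM was 6.89 at the lowest, 8.53 at the median and 11.2 at the highest. In *FRAIL1* muscles the values were 3.03, 5.61 and 7.43. The groups overlapped, but within each mouse the *FRAIL1* leg was the lower one. The mean fell from 8.74 ± 1.46 to 5.37 ± 1.72 CPM (n = 6 in each group). On the log2 scale *Hlf* changed by -0.70 (SE 0.19, 95% interval -1.12 to -0.29, edgeR adjusted p = 0.0477). The change within a mouse ran from -0.38 in mouse 2 to -1.27 in mouse 1. The lowest value in each group was that of mouse 5 and the highest that of mouse 6, so these mice kept their ends of the range. The others did not all keep their order. Mouse 1 was next to the highest in the Control leg (9.30 CPM) and next to the lowest in the *FRAIL1* leg (3.83 CPM).

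The *Hlf* call was sensitive to the choice of muscles. It was under the threshold in 18 of 27 alternatives and over it in 9, and the fold change was negative in all 27, between -0.82 and -0.58. With 1 muscle left out it passed in 4 of 12 fits, among them the one without *FRAIL1* muscle 5 (log2 fold change -0.58, edgeR adjusted p = 0.0440). The largest adjusted p, 0.0947, came without *FRAIL1* muscle 1. With the mouse as a block the log2 fold change was -0.74 (SE 0.13, edgeR adjusted p = 0.00895), and with a block it passed in 6 of 6 fits that left out a mouse. The plot of adjusted p by factor shows that the other factors passed in few fits or in none.

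**Figure D1:**
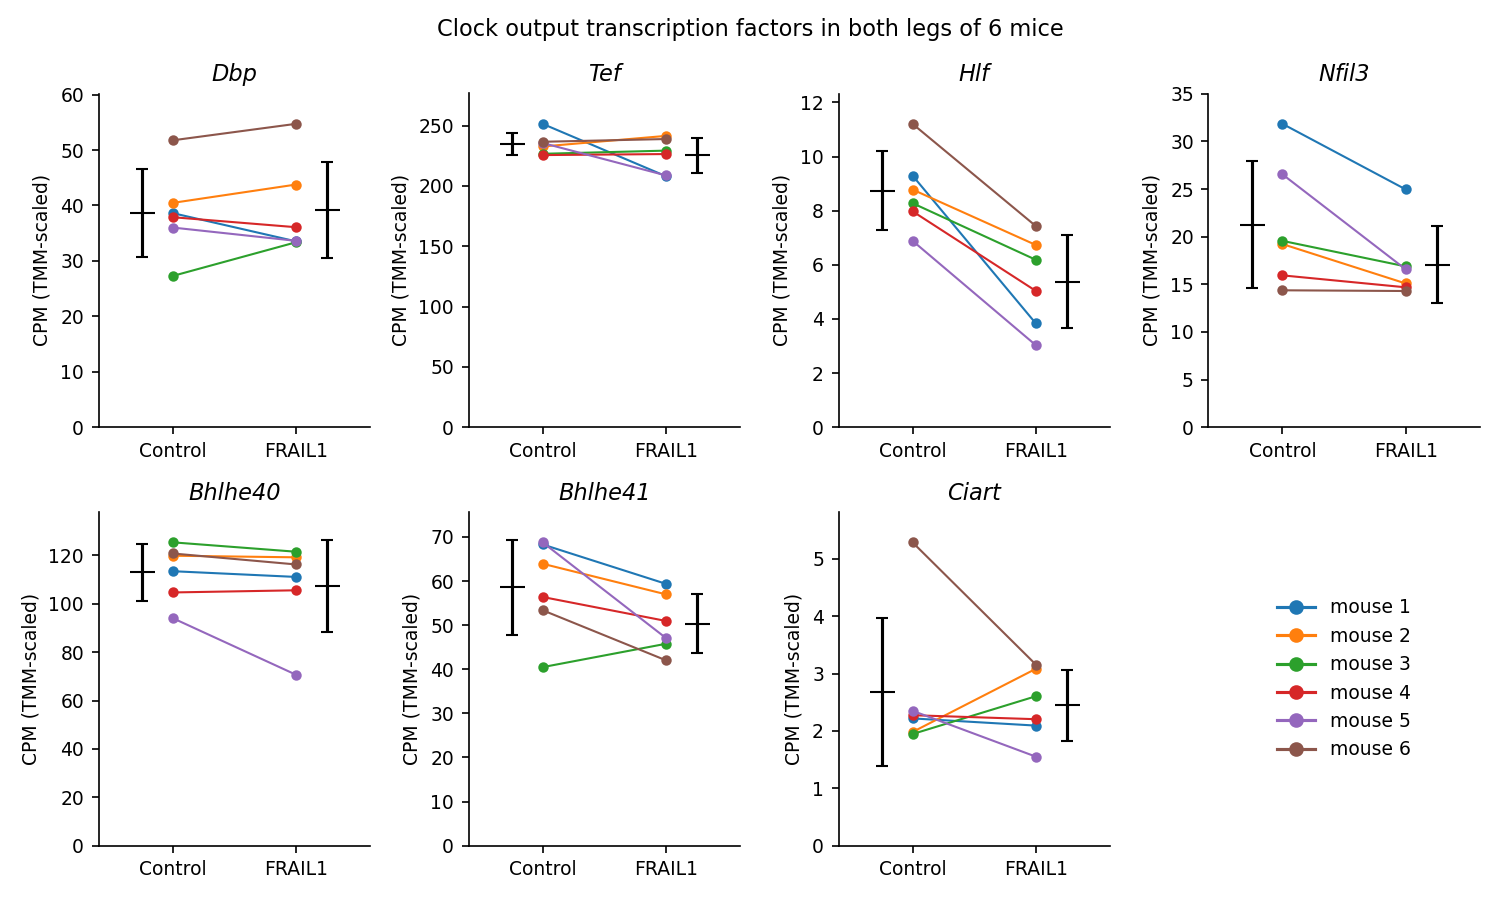
Level of each clock output factor (vertical axis, TMM-scaled CPM from 0) in the Control and *FRAIL1* legs; points joined by a line are the legs of 1 mouse, and black bars are the mean ± SD of 6 muscles. *Hlf* and *Nfil3* lines fall in 6 of 6 mice, while *Dbp* and *Tef* lines run in both directions.

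*Dbp* (Gene ID 13170, chr7:45705100-45710203) encodes the D-box binding PAR bZIP protein and is a direct target of BMAL1 and CLOCK. Its CPM was 27.3 at the lowest, 38.3 at the median and 51.8 at the highest in Control muscles, and 33.4, 34.8 and 54.7 in *FRAIL1* muscles. The *FRAIL1* leg was higher in 3 of 6 mice. The means were 38.7 ± 7.90 and 39.2 ± 8.59 CPM, a log2 fold change of 0.019 (SE 0.15, 95% interval -0.31 to 0.35, edgeR adjusted p = 0.953), and its sign turned when certain muscles were left out. In the annotation, 18% of its exon bases lie opposite *Sphk2*, which encodes a sphingosine kinase. The strand setting of the counting is not given in the sources used here, so reads of the shared bases cannot be assigned. *Sphk2* was at 24.3 ± 3.02 and 22.6 ± 1.91 CPM (log2 fold change -0.10, SE 0.082, edgeR adjusted p = 0.436).

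*Tef* (Gene ID 21685, chr15:81802673-81826863) encodes thyrotroph embryonic factor, the third PAR bZIP activator. It had the highest level of the 7 and the narrowest relative spread. Control muscles lay between 225.5 and 251 CPM with a median of 234, and *FRAIL1* muscles between 208 and 241 with a median of 228. The groups overlapped between 225.5 and 241 CPM, and the *FRAIL1* leg was higher in 4 of 6 mice. The means were 234.7 ± 9.36 and 225.4 ± 14.4 CPM, a log2 fold change of -0.058 (SE 0.058, 95% interval -0.18 to 0.065, edgeR adjusted p = 0.543).

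The PAR bZIP genes were also compared with one another within each mouse. The log2 change of *Dbp* exceeded that of *Hlf* in 6 of 6 mice, by 0.77 ± 0.25 (mean ± SD, 95% interval 0.51 to 1.03, exact sign-flip permutation p = 0.03125). The change of *Tef* exceeded that of *Hlf* in 6 of 6 mice as well, by 0.69 ± 0.26 (95% interval 0.42 to 0.96, exact p = 0.03125). This p is the smallest that 6 mice allow in a two-sided test. Adjusted over the 4 pairs compared, each became 0.0625, so neither difference passed after correction. With this smallest p, a pair could pass only if most of the 4 pairs reached it, so the correction decides little here. *Dbp* and *Tef* differed by 0.078 ± 0.11 (95% interval -0.039 to 0.20, exact p = 0.1875). *Bhlhe40* and *Bhlhe41* differed by 0.11 ± 0.17 (95% interval -0.068 to 0.30, exact p = 0.1875).

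*Nfil3* (Gene ID 18030, chr13:52967209-52982878) encodes the repressor E4BP4, which competes with the PAR bZIP proteins for D-boxes. Its CPM was 14.4 at the lowest, 19.4 at the median and 31.8 at the highest in Control muscles, and 14.3, 15.8 and 25.0 in *FRAIL1* muscles. The *FRAIL1* leg was lower in 6 of 6 mice, by as little as 14.4 against 14.3 CPM in mouse 6. Nearly the whole *FRAIL1* range lay within the Control range. Mouse 1 was highest and mouse 6 lowest in both legs. The means were 21.2 ± 6.68 and 17.1 ± 4.0 CPM, a log2 fold change of -0.31 (SE 0.20, 95% interval -0.75 to 0.12, edgeR adjusted p = 0.325). With the mouse as a block the log2 fold change was -0.29 (SE 0.082) and passed the test (edgeR adjusted p = 0.0391). When 1 mouse was left out and the block kept, it passed in 2 of 6 fits, with an edgeR adjusted p of up to 0.122 (without mouse 1). With the block, 2 of 7 factors were called lower, beside 6.62% of all genes.

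*Bhlhe40* (Gene ID 20893, chr6:108660629-108666925) and *Bhlhe41* (Gene ID 79362, chr6:145858243-145865420) encode the DEC repressors. *Bhlhe40* lay between 94.1 and 125 CPM with a median of 117 in Control muscles, and between 70.7 and 122 with a median of 114 in *FRAIL1* muscles. Except for mouse 5 the legs of a mouse were nearly level. The means were 113 ± 11.7 and 107 ± 18.9 CPM, a log2 fold change of -0.074 (SE 0.11, 95% interval -0.32 to 0.17, edgeR adjusted p = 0.713). When *FRAIL1* muscle 5 was left out it became 0.019 (edgeR adjusted p = 0.914).

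*Bhlhe41* lay between 40.5 and 68.8 CPM with a median of 60.2 in Control muscles, and between 42.0 and 59.4 with a median of 49.0 in *FRAIL1* muscles. It was lower in the *FRAIL1* leg of 5 mice and higher in that of mouse 3, which had the lowest Control value. The means were 58.6 ± 10.8 and 50.4 ± 6.73 CPM, a log2 fold change of -0.22 (SE 0.12, 95% interval -0.48 to 0.046, edgeR adjusted p = 0.267). Of its exon bases, 19% lie opposite the annotated transcript *Gm43909*. Opposite genes cover 2.51% of *Bhlhe40* (*0610040F04Rik*) and 2.45% of *Tef* (*Gm17597*), and no gene overlaps *Hlf*, *Nfil3* or *Ciart*.

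*Ciart* (Gene ID 229599, chr3:95878500-95882257) encodes the circadian repressor CHRONO and had the lowest CPM of the 7. Its CPM was 1.95 at the lowest, 2.25 at the median and 5.29 at the highest in Control muscles, and 1.55, 2.40 and 3.16 in *FRAIL1* muscles. Control muscle 6 was far above the other Control muscles, of which the next reached 2.35 CPM. The means were 2.68 ± 1.29 and 2.45 ± 0.619 CPM, a log2 fold change of -0.12 (SE 0.25, 95% interval -0.67 to 0.42, edgeR adjusted p = 0.786). When Control muscle 6 was left out it became 0.19 (edgeR adjusted p = 0.550).

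Over the 7 factors, 6 of the log2 fold changes were below 0 and their median was -0.12, while over all genes tested 48.4% were below 0 and the median was 0.0096. For no factor did the groups fail to overlap, which was the case for 4.88% of all genes.

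**Figure D2:**
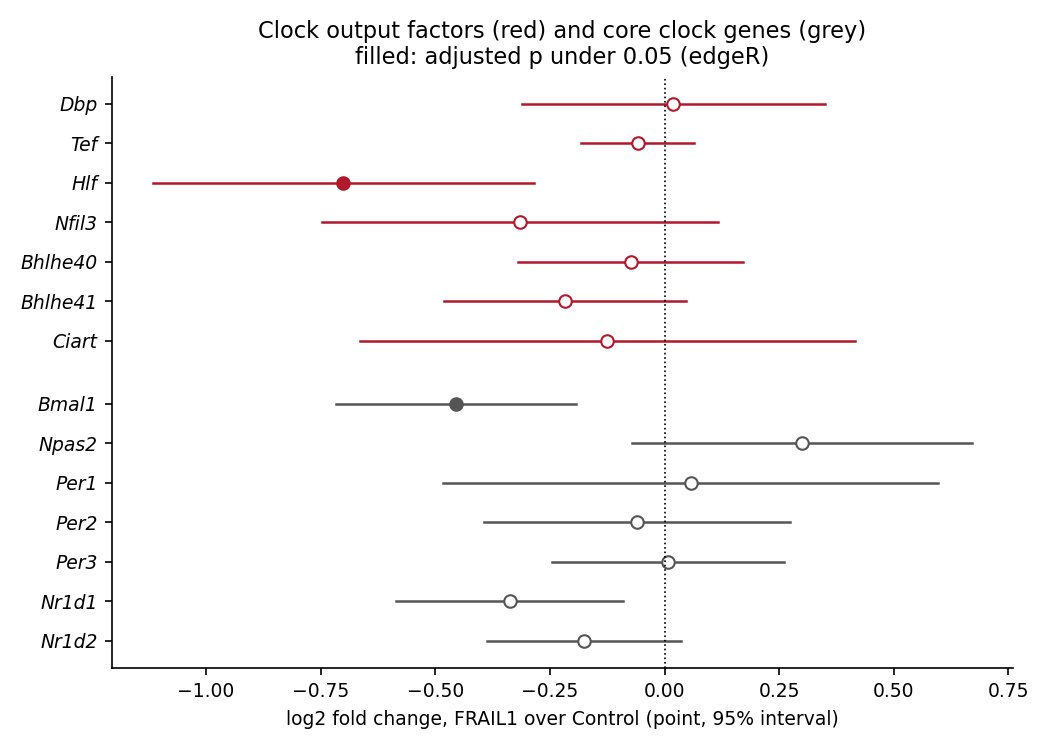
Log2 fold change of *FRAIL1* over Control (horizontal axis; point and 95% interval) of the 7 clock output factors in red and of 7 core clock genes in grey, with filled points for an edgeR adjusted p under 0.05. *Hlf* and *Bmal1* are the filled points, at -0.70 and -0.45, and the intervals of *Dbp* and *Tef* include 0.

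The core clock genes that drive these factors were examined next. Of 18 such genes, 17 were tested, 1 was called lower and 0 higher, and the median log2 fold change was -0.12. The gene called was *Bmal1*, the activator of the loop, at 24.6 ± 3.25 CPM in Control and 17.9 ± 3.46 in *FRAIL1* muscles (log2 fold change -0.45, SE 0.12, edgeR adjusted p = 0.0429). It was lower in the *FRAIL1* leg of 6 of 6 mice and passed in 17 of 27 alternatives. When *FRAIL1* muscle 5 was left out, its log2 fold change was -0.39 (edgeR adjusted p = 0.0612). DESeq2 and limma voom each called 4 core clock genes lower. Of all 15502 genes tested they called 929 and 842 lower, against 287 by edgeR. *Nr1d1* was at 257 ± 25.1 and 203 ± 36.8 CPM, lower in 6 of 6 mice (log2 fold change -0.34, edgeR adjusted p = 0.0821). Without *FRAIL1* muscle 5 its log2 fold change was -0.24 (edgeR adjusted p = 0.0474). With the mouse as a block 3 core clock genes were called lower, among them *Bmal1* (edgeR adjusted p = 0.0105) and *Nr1d1* (0.0383). That fit called 6.62% of all genes lower. The period genes *Per1*, *Per2* and *Per3*, like *Dbp* driven from E-boxes, had log2 fold changes of 0.057, -0.060 and 0.0068 (edgeR adjusted p = 0.909, 0.837 and 0.979).

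Among 12 other genes with a known daily rhythm or control by the clock, edgeR called 0 (4 at an unadjusted p under 0.05, 1 higher and 2 lower called by DESeq2 and 2 by limma voom) and the median log2 fold change was -0.070. The edgeR test gave an adjusted p of 0.0543 for *Nampt*, which encodes an enzyme of NAD synthesis (log2 fold change -0.33), 0.0675 for *Tsc22d3* (-0.36) and 0.0725 for the myogenic factor *Myod1* (0.36). With the block 3 of these genes were called lower, *Nampt*, *Pdk4* and *Tsc22d3*, and *Myod1* higher. Of 8 genes known as targets of PAR bZIP factors in liver or brain, 5 were tested and edgeR called 0, with or without the block, as did DESeq2 and limma voom, and 0 had an unadjusted p under 0.05. Their log2 fold changes lay between -0.31 for the nuclear receptor *Nr1i3* (SE 0.35, edgeR adjusted p = 0.60) and 0.11 for the cytochrome P450 reductase *Por* (SE 0.059, edgeR adjusted p = 0.239). The fatty acid sensor *Ppara* was at -0.11 (SE 0.23, edgeR adjusted p = 0.786).

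In the families related to the factors, 1 of 5 tested C/EBP genes was called lower, *Cebpg* (67.6 ± 6.07 and 53.8 ± 7.32 CPM, log2 fold change -0.33, edgeR adjusted p = 0.0425). *Cebpa* was at 0.54 (edgeR adjusted p = 0.124) and *Ddit3* at 0.13 (0.398). Of 5 tested HES and HEY repressors, the relatives of *Bhlhe40* and *Bhlhe41*, 1 was called higher, *Hes6* (10.4 ± 0.719 and 17.5 ± 4.42 CPM, log2 fold change 0.74, edgeR adjusted p = 0.00770). *Hes6* encodes a HES protein that promotes myogenic differentiation. *Hey2* was at 0.074 and *Heyl* at 0.056 (edgeR adjusted p = 0.929 and 0.865).

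Signals that are known to act on these genes were read from their other targets. Of 7 glucocorticoid-inducible genes 1 was called lower, *Zbtb16* (60.2 ± 6.68 and 45.7 ± 5.33 CPM, log2 fold change -0.40, edgeR adjusted p = 0.0208). The median of this list was -0.24, and with the block 4 were called lower, *Fkbp5*, *Zbtb16*, *Klf9* and *Tsc22d3*. Of 11 hypoxia-inducible genes, a class to which *Bhlhe40* belongs, edgeR called 0 (4 at an unadjusted p under 0.05) and, with the block, 1 lower, as did DESeq2 and limma voom, and the median was -0.097. The largest log2 fold changes were 0.48 for *Car9*, 0.25 for *Ankrd37* and -0.23 for *Vegfa* (edgeR adjusted p = 0.169, 0.233 and 0.0674).

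Markers of other cells and of regenerating fibers moved with the groups. Summed CPM of 7 satellite cell and regenerating fiber markers was 144 to 191 in Control and 299 to 1523 in *FRAIL1* muscles, with 5 of 7 called higher. Most of this sum was the developmental myosins *Myh8* (mean 98.3 CPM in Control, 353 in *FRAIL1* muscles) and *Myh3* (50.9 and 228). The satellite cell markers *Pax7* (2.40 and 3.54 CPM) and *Myf5* (1.69 and 2.79 CPM) were not called (edgeR adjusted p = 0.0634 and 0.0645). With the block both passed (edgeR adjusted p = 0.0345 and 0.0486). The sum of 8 endothelial markers was 482 to 553 and 385 to 490, with *Tek*, *Vwf* and *Flt1* called lower. The sum of 12 macrophage markers was 232 to 362 and 289 to 749, with 0 called by edgeR and 5 higher with the block, 7 at an unadjusted p under 0.05, 6 higher by DESeq2 and 4 higher by limma voom. In order of rising *Hlf* level, *FRAIL1* muscles 5, 1, 4, 3, 2 and 6 held satellite cell and regenerating fiber sums of 1523, 629, 573, 300, 299 and 506. The part of these cells and regenerating fibers in the *Hlf* and *Nfil3* values was not tested. Of 8 fast myofiber markers, 2 were called lower, *Ckm* and *Ryr1*, 4 were called lower with the block and 5 by each of DESeq2 and limma voom, and all 8 were detected.

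The factors also differed between mice, and for some of them both legs of a mouse shared this difference. Across the 6 mice the *Bhlhe40* level of the *FRAIL1* leg followed that of the Control leg with Pearson's r = 0.929 (exact permutation p = 0.00278, 0.0194 adjusted over the 7 factors) and Spearman's rho = 0.943 (exact p = 0.0167, adjusted 0.0583). For *Nfil3* r was 0.862 (exact p = 0.00833, adjusted 0.0292) and rho 0.943 (exact p = 0.0167, adjusted 0.0583). For *Dbp* r was 0.817 (exact p = 0.0319, adjusted 0.0745) and rho 0.829 (exact p = 0.0583, adjusted 0.136). When the 2 mice farthest from the median Control level were left out, r was 0.939, 0.804 and 0.798 for these genes. The median r of all genes tested was 0.233, and 1.44% of genes had an r at or above that of *Bhlhe40*, 4.40% at or above that of *Nfil3* and 6.91% at or above that of *Dbp*.

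For the other factors no such relation was detectable with 6 mice, even before adjustment. *Hlf* had r = 0.676 (exact p = 0.140; rho 0.657, exact p = 0.175), which turned to -0.440 without the 2 mice farthest from the median Control level. *Bhlhe41* had r = 0.570 (exact p = 0.233) and rho = 0.60 (exact p = 0.242), and r was 0.939 without 2 mice. *Tef* had r = -0.531 (exact p = 0.293) and rho = -0.314 (exact p = 0.564), and r was -0.125 without 2 mice. *Ciart* had r = 0.355 (exact p = 0.493) and rho = -0.029 (exact p = 1.0), and r was -0.940 without 2 mice. These values without 2 mice rest on 4 mice each. In *Dbp* the SD between mice of the average of both legs was 0.28 on the log2 scale, and the SD of the difference between legs was 0.18. In *Tef* the SD of the average was 0.040 and that of the difference 0.13. An average of legs varies less than their difference when legs are unrelated, so these SDs are not on the same scale.

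**Figure D3:**
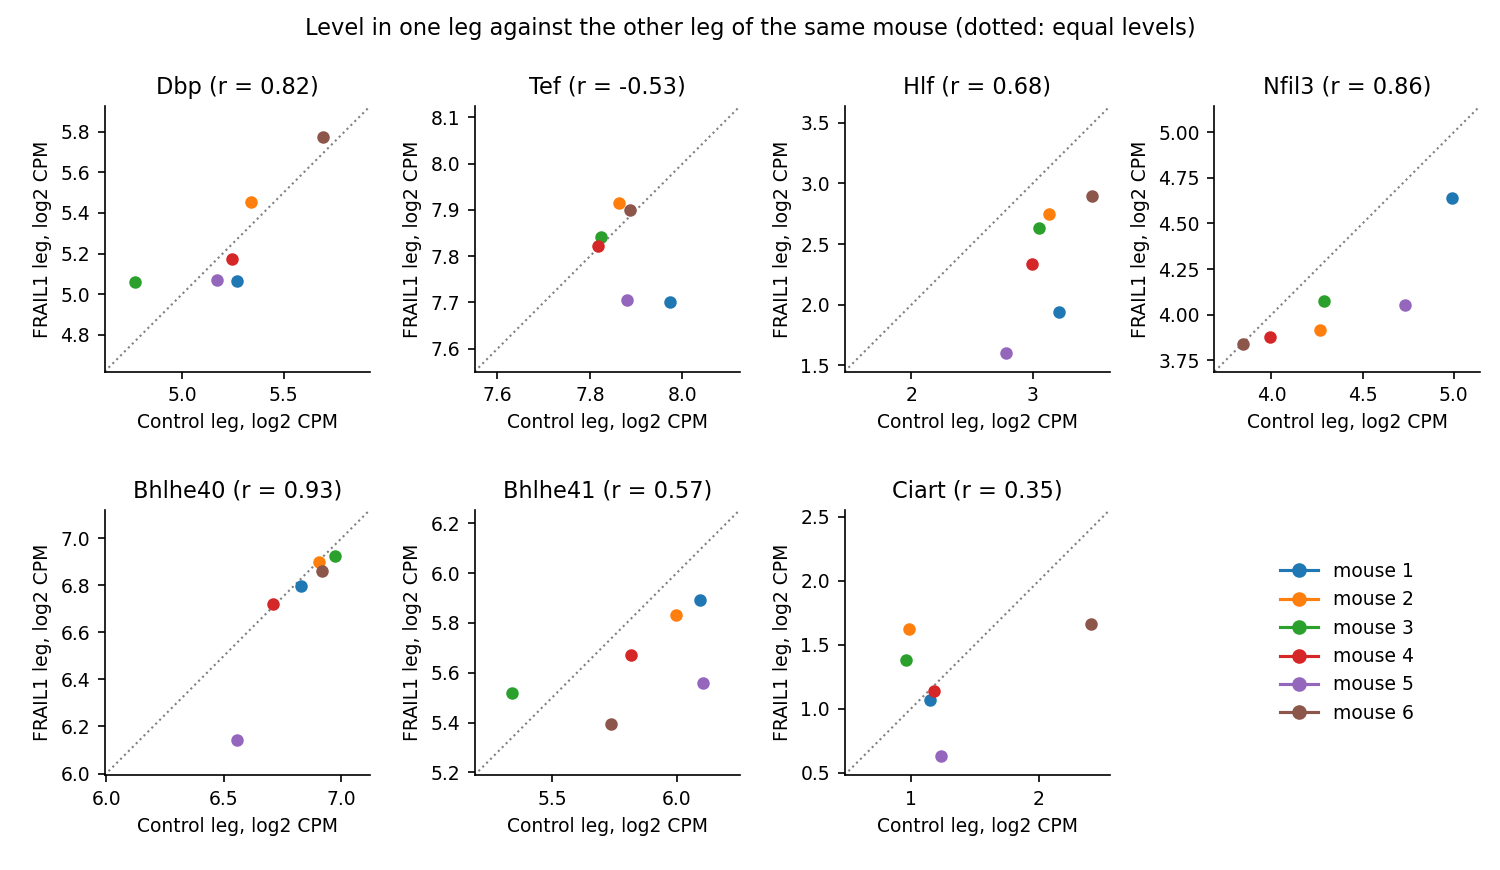
Level of each factor in the *FRAIL1* leg (vertical axis) against the Control leg (horizontal axis) of the same mouse, in log2 CPM; each point is 1 of 6 mice and the dotted line marks equal levels. Points of *Bhlhe40*, *Nfil3* and *Dbp* rise together (r = 0.929, 0.862 and 0.817), and all 6 points of *Hlf* lie below the line.

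Single mice showed which ends of the range these were. Mouse 6 had the highest *Dbp* in both legs (51.8 and 54.7 CPM) and the lowest *Nfil3* (14.4 and 14.3 CPM). It also had the highest *Per2* (7.48 and 6.26 CPM) and the highest *Per3* (22.2 and 21.3 CPM) in both legs. Mouse 1, with the highest *Nfil3* (31.8 and 25.0 CPM), had the lowest *Per3* in both legs (14.4 and 13.5 CPM). *Per1* did not share this order. It was highest in both legs of mouse 3 (43.5 and 45.7 CPM), which had the lowest *Dbp* (27.3 and 33.4 CPM).

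Over the 12 muscles, in deviations from the group means, *Dbp* ran with *Per2* (r = 0.888), *Per3* (0.826) and *Ciart* (0.755), and against *Npas2* (-0.659) and *Nfil3* (-0.416). With the other period gene, *Per1*, its r was -0.246. *Hlf* ran with *Nr1d2* (0.90), *Tef* (0.812), *Bhlhe40* (0.796) and *Ciart* (0.754). *Nfil3* ran against *Per3* (-0.83) and with *Bhlhe41* (0.551). These correlations describe muscles that share mice and libraries, and no test was made of them.

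By the same measure over all genes tested, the genes most like *Dbp* were *Kcna2* (r = 0.932), *Ucp3* (0.911) and *Necab1* (0.905). Those most like *Hlf* were *Sh3glb1* (0.965), *Chpt1* (0.953) and *Aldh6a1* (0.950). *Tef* was closest to *Gm4861* (0.959), *Prodh* (0.910) and *Adrm1* (0.899). *Nfil3* was closest to *Cntfr* (0.916), *Sphk2* (0.914) and *Eif2b2* (0.908). *Bhlhe40* was closest to *Klhl33* (0.966), Gene ID 328399 (0.963) and *Peg13* (0.960), and *Bhlhe41* to *Sap30l* (0.936), *Frat1* (0.931) and *Mtarc2* (0.927). *Ciart* was closest to Gene ID 100861531 (0.933), *Lars2* (0.933) and Gene ID 19791 (0.931). None of these 21 genes passed the test between groups, the lowest edgeR adjusted p being 0.0614 for *Peg13*.

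**Figure D4:**
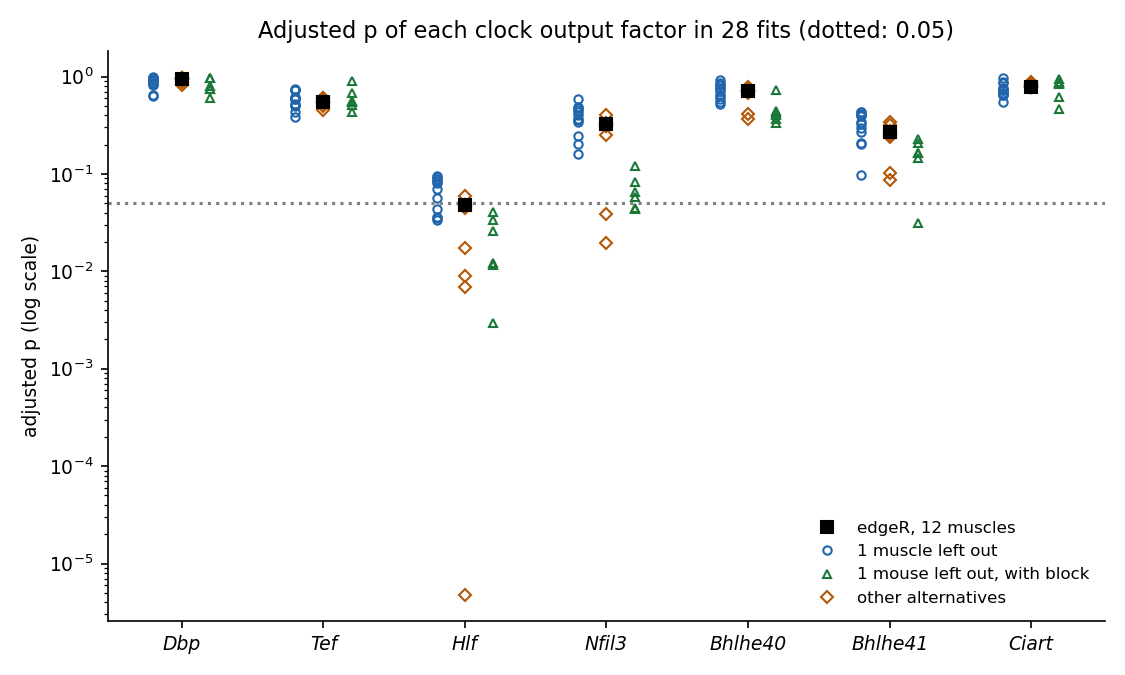
Adjusted p (vertical axis, log scale) of each clock output factor in the edgeR test of all 12 muscles and in 27 alternatives, with the threshold of 0.05 dotted; circles leave out 1 muscle, triangles leave out 1 mouse with the mouse as a block, and diamonds are the other alternatives. *Hlf* lies on both sides of the line, *Nfil3* crosses it in 4 alternatives and *Bhlhe41* in 1, and the rest stay above it.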

How the data were processed

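RNA-seq counts of 12 TA muscles, 6 Control and 6 *FRAIL1*, were used. Per the submitters' processing notes and the study's methods, the authors trimmed reads with Trimmomatic, mapped them to mm10 with STAR 2.7.8a and counted uniquely mapped reads per gene with featureCounts 2.0.1. The deposited values are whole-number counts without normalization. Of 27179 Gene IDs, 25275 were matched to a RefSeq symbol of GRCm38.p6. No library was a copy of another (chi-square per degree of freedom within a group of at least 14.5 over 30 pairs). Intervals reflect the spread between muscles.

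Genes were filtered with filterByExpr, scaled with TMM and compared over all 12 muscles in edgeR 4.0.16 (R 4.3.3) with its quasi-likelihood F test, fitted robustly, and Benjamini-Hochberg adjustment. The study used DESeq2, which was run as an alternative (version 1.42.0), as were limma 3.58.1 (voom), other scalings and filters, and fits without a muscle or a mouse. Gene positions and exon lengths are those of the GRCm38 annotation. Exact permutation tests went through all pairings or sign flips with NumPy 2.4.6 in Python 3.11.15. SciPy 1.17.1 gave the ranks and the t quantiles of the intervals between related factors.

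Same-numbered muscles were taken as the legs of 1 mouse, because each mouse gave both TAs. The labels do not state that the number is the mouse. Deviations from the group means correlated at 0.200 on average within a number (0.0547 to 0.282, over 0.1 for 5 of 6) and at -0.0400 between numbers. The second average largely follows from the first, because deviations cancel within a group, so it adds no separate evidence.

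The factors and gene lists were chosen with earlier results of these data known. Of each list, genes with an adjusted p under 0.05 were named, and otherwise the largest fold changes, together with genes that overlap a factor and the 3 genes most like each. *Per1*, *Per2*, *Per3* and the genes called only with the block, as well as *Npas2*, *Nr1d2* and *Csnk1d*, were named after their values were seen. Some genes of the core clock list enter its counts but are not reported here by name.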

Additional observations from a re-analysis of the deposited data

Results flagged for a closer look

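In 3 of the 14 groups of 6 muscles formed by the 7 factors, the highest or lowest muscle was far from the others by Dixon's criterion, which chance alone meets in about 5% of groups. *Nfil3* in *FRAIL1* muscle 1 was at 25.0 CPM, with the next muscle at 16.9 (gap over range 0.758). The Control leg of the same mouse was also the highest, at 31.8 CPM. *Bhlhe40* in *FRAIL1* muscle 5 was at 70.7 CPM, with the next muscle at 105.6 (gap over range 0.686), and the Control leg of that mouse was the lowest Control muscle, at 94.1 CPM. *Ciart* in Control muscle 6 was at 5.29 CPM, with the next muscle at 2.35 (gap over range 0.879), and the *FRAIL1* leg of that mouse was the highest of its group, at 3.16 CPM.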

How the results depend on the processing

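With the replicate block (the mouse), 2186 genes were called, 936 of them among the 974 called without it, and 2 of the 7 factors and 3 core clock genes passed. *Nfil3* then passed at a log2 fold change of -0.29, and at -0.30 by DESeq2 with the block. The counts of all genes called were 2196 by DESeq2, 2868 by DESeq2 with the block and 1836 by limma voom. The core clock genes called were 4 by each of these, and the factors called were 2 by DESeq2 with the block. Without the filter 0 factors (*Hlf* at -0.70, edgeR adjusted p = 0.0593) and 0 core clock genes passed. *Ciart* turned to 0.068 by limma voom. The share of calls that were lower was 29.5% with TMM, 33.7% with DESeq2 size factors, 31.2% with TMM without mitochondrial and top genes, and 36.3% with upper-quartile scaling, and it was 47.0% with the block, 42.3% by DESeq2, 45.9% by limma voom and 13.7% to 52.6% when a muscle or a mouse was left out.

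With 1 muscle left out, 364 to 2110 genes, 0 to 1 factors and 0 to 3 core clock genes were called. With 1 mouse left out and the block kept, the counts were 292 to 2305 (1908 without mouse 2 and 2004 without mouse 3), 1 to 2 and 1 to 4. Over the same fits *Hlf* lay between -0.82 and -0.58 with 1 muscle left out and -0.82 and -0.64 with 1 mouse left out, and *Nfil3* between -0.46 and -0.16 and between -0.34 and -0.21. *Bhlhe41* lay between -0.30 and -0.17 and between -0.28 and -0.14, and *Tef* between -0.082 and -0.038 and between -0.086 and -0.017. The sign turned for *Dbp* (-0.10 to 0.12, and -0.036 to 0.063), *Bhlhe40* (-0.12 to 0.019, and -0.11 to -0.028) and *Ciart* (-0.21 to 0.19, and -0.22 to 0.077). *Dbp* was negative without Control muscle 3 (-0.064) or 5 (-0.0011), *FRAIL1* muscle 2 (-0.018) or 6 (-0.10), or mouse 2 (-0.0041) or 3 (-0.036), and none of these values passed the test. *Ciart* was positive without Control muscle 6 (0.19), mouse 5 (0.024) or mouse 6 (0.077), and *Bhlhe40* without *FRAIL1* muscle 5 (0.019). The 4 differences between related factors and the 7 correlations between legs kept their sign and their side of the threshold with a smaller prior count, and the differences kept their sign without any 1 mouse, where 5 mice allow no p under the threshold. The causes of these changes were not tested. *Ciart* had the fewest counts, 83 to 241 per muscle, and also the widest spread, with a coefficient of variation of 48.2% in Control muscles.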

Other observations

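Other cell and fiber markers were read from the same muscles. Of 7 satellite cell and regenerating fiber markers, *Myog*, *Mymk*, *Mymx*, *Myh3* and *Myh8* rose, genes of myoblast differentiation, fusion and developmental myosins, with log2 fold changes of 1.46, 1.85, 1.76, 2.16 and 1.84 (edgeR adjusted p = 0.0124, 0.00265, 0.00324, 0.0124 and 0.0227). Of 7 slow fiber genes, *Tnni1*, *Tnnt1*, *Tnnc1* and *Atp2a2* rose, by 2.27, 1.77, 1.58 and 0.90 on the log2 scale (edgeR adjusted p = 0.00817, 0.00526, 0.0145 and 0.00770). Without *FRAIL1* muscle 5, the muscle with the highest sum of the satellite cell list (1523 CPM), each of these genes still passed the edgeR test, with log2 fold changes of 1.14 to 1.69 for the satellite cell list and 0.71 to 1.90 for the slow fiber list. The troponins are those of slow fibers, and the calcium pump of *Atp2a2* is the slow and cardiac form. The myosin genes of the slow fiber list, *Myh7*, *Myl2* and *Myl3*, were not called. Their log2 fold changes were 0.39, 0.47 and -0.49 (edgeR adjusted p = 0.696, 0.725 and 0.614). With the block these were -0.13, -0.19 and -0.64 (edgeR adjusted p = 0.889, 0.791 and 0.332).

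Of 7 tested fibroblast and fibro-adipogenic markers edgeR called 0 (4 at an unadjusted p under 0.05, and 2 called higher by DESeq2 and 2 by limma voom), with a median log2 fold change of 0.44 and *Col1a1* at 1.04 (edgeR adjusted p = 0.0522). Without *FRAIL1* muscle 5 *Col1a1* was at 0.68 and passed (edgeR adjusted p = 0.0309). With the block it was at 0.92 and did not pass (edgeR adjusted p = 0.0927), and 0 genes of this list were called. With the block and without mouse 5 *Col1a1* did not pass either (edgeR adjusted p = 0.153), while 2 other genes of the list were called higher. In the main fit *Dcn* was at 0.019 and *Pi16* at -0.14 (edgeR adjusted p = 0.948 and 0.777). Of 7 Schwann cell markers edgeR called 0 (3 at an unadjusted p under 0.05), DESeq2 called 1 higher and 2 lower and limma voom 0, edgeR with the block called 1 higher and 1 lower, and the median was -0.26. Of 10 tested lymphocyte and NK cell markers edgeR, DESeq2 and limma voom called 0, 0 had an unadjusted p under 0.05, and the median was -0.025, while edgeR with the block called 1 higher.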
